A study of Saccharomyces cerevisiae with 18 samples.

Results

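The comparison set 12 libraries of heterozygous gene-replacement strains of budding yeast (Saccharomyces cerevisiae) against 6 libraries labelled wild-type, and so used all 18 libraries of the series. The sides were chosen by strain label, and functions outside the mating genes were examined across the 2856 of 6606 open reading frames (ORFs) with enough counts. The study measured poly-A RNA by sequencing in cells grown in rich glucose medium (YPD) at 30 °C, harvested in log phase (optical density 0.2 at the start, 1.0 at the end) with no G418 in the medium. Each of the 4 strains was a heterozygous diploid with 3 libraries. The affected gene was SEO1 (YAL067C, a presumed transporter), GIP4 (YAL031C, which acts with the phosphatase Glc7), FUN26 (YAL022C, a nucleoside transporter) or FUN14 (YAL008W, a mitochondrial protein), all on chromosome 1. The background label of every library was BY4741, a haploid a-mating-type laboratory strain, while the series record calls the wild-type diploid and its data columns carry the name of the diploid BY4743. Whether replicates were separate cultures is not stated, so each p-value reflects only how far these libraries spread, and that spread may be technical. In bulk RNA, fewer cells of a type and less RNA per cell cannot be told apart.

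Yeast makes all of its amino acids from glucose and ammonium, and the activator Gcn4 switches on many of the synthesis genes when amino acids run short. Glucose enters through a family of hexose transporters, of which low-affinity members serve at high sugar and high-affinity members at low sugar. Mating type decides which cells express pheromone and receptor genes: a/alpha diploids shut off both the a-specific and the haploid-specific genes, and they alone can enter meiosis.

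Total estimated counts ran from 66764.5 to 116519.5 in wild-type and from 52293.5 to 132618 in the strains. Replicates 1 and 2 of wild-type differed by no more than sampling noise (chi-square per ORF of 0.959 over 2422 ORFs, against 1.98 to 9.16 for other wild-type pairs). They were counted as 1 sample, which leaves 5 wild-type libraries. In 4 libraries over 1% of well counted ORFs had at most 1 count: wild-type replicate 3 (4.04%), SEO1 replicate 2 (2.21%), FUN26 replicate 3 (2.02%) and FUN14 replicate 2 (1.55%). Wild-type replicate 5 had the most ORFs with a count (96.0%). A principal component analysis of log2 CPM gave 44.8% of the variance to its first axis, and wild-type replicate 3 lay at 38.7 on it against −23.7 to −3.40 for the other wild-type libraries. Levels are counts per 1000000 (CPM) of the scaled library total, and a fold change is the mean of the 4 strain means minus wild-type on the log2 scale.

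Some levels went against the labels. The 6 a-specific mating genes summed to between 955 and 1617 CPM in the libraries labelled wild-type and between 15.99 and 174 CPM in the strains, without overlap, although an a/alpha diploid represses them. The 11 haploid-specific genes ran from 1095 to 1658 CPM against 34.8 to 239 CPM. The 4 alpha-specific genes were low on both sides, and STE3, the a-factor receptor, gave 2 counts across wild-type and 1 across the strains. MET17, which is deleted in BY4741, stood at 141 ± 27.3 CPM in wild-type (SD, n = 5) and 135 ± 74.7 CPM in the strains (n = 12), a ratio of 0.894 (95% counting interval 0.651 to 1.24). URA3 had 0 counts on both sides, which allows up to 7.27 CPM in wild-type and 2.93 CPM in the strains. Of the other auxotrophic marker genes, LEU2 had 2 counts over wild-type and 0 over the strains, and LYS2 had 10 and 31. HIS3 stood at 571 ± 260 CPM in wild-type and 671 ± 122 CPM in the strains. The direction of every difference given here rests on the libraries labelled wild-type, and the part of mating type in it was not tested. Of the replaced genes, FUN14 stood at 164 CPM in its own strain and 312 ± 48.9 CPM in wild-type, FUN26 at 136 CPM and 269 ± 118 CPM, and GIP4 had 2, 1 and 0 counts in its own replicates and 3 to 8 in the wild-type libraries. SEO1 had 3 counts over wild-type and 0 over all strains, too few to check the label of its strain.

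Outside the mating genes, few functions separated the sides. The hexose transporter gene HXT6, the uncharacterised ICS2 and the filamentous growth factor gene TEC1 fell, and the median of the amino acid synthesis genes lay above that of all ORFs. That trait was not particular to amino acid synthesis, whose median log2 fold change was 0.23. Trehalose and glycogen genes had 0.35, purine genes 0.27, pyrimidine genes 0.26 and phosphate genes 0.22. By edgeR's quasi-likelihood test with Benjamini-Hochberg adjustment, 11 of the 2856 tested ORFs (0.385%) passed an adjusted p of 0.05. Of these, 1 was higher (0.035%) and 10 were lower (0.35%), and 7 of the lower ORFs belonged to the mating lists. Those 7, HXT6 and ICS2 met the count filter for testing only through wild-type, where they are high. Their calls, and the larger count of lower ORFs, are therefore a description. At an unadjusted p under 0.05, 185 ORFs (6.48%) stood out, 90 (3.15%) higher and 95 (3.33%) lower. The median log2 fold change of all tested ORFs was −0.05, and 1261 were positive. Medians by chromosome lay between −0.11 and 0.01, with chromosome 1, which carries the replaced genes, at −0.11 over 47 ORFs. Chromosome 14 lay close to it, at −0.096. By strain, the chromosome 1 median ran from −0.096 in the FUN14 heterozygote to 0.14 in the GIP4 heterozygote.

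**Figure D1:**
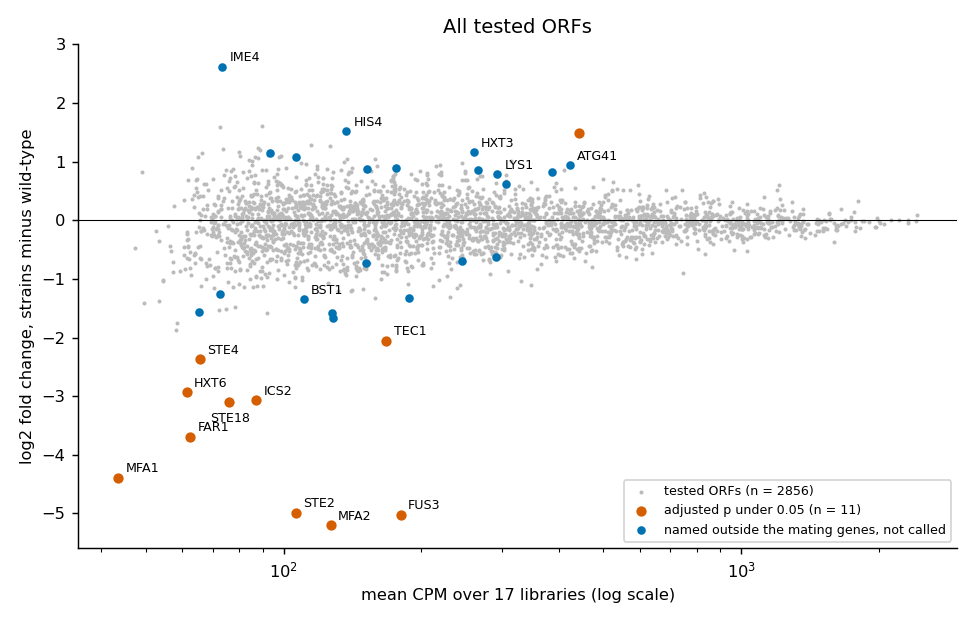
Each point is 1 of 2856 tested ORFs, by mean CPM over 17 libraries (horizontal, log scale) and log2 fold change of strains minus wild-type (vertical). The 11 ORFs past an adjusted p of 0.05 are orange, 10 of them below 0, and blue points are other named ORFs outside the mating genes.

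Among arginine synthesis genes, ARG4, argininosuccinate lyase, stood at 28.6 ± 14.3 CPM in wild-type (SD, n = 5) and 91.0 ± 56.7 CPM in the strains (n = 12). Its libraries ran from 11.1 to 49.0 CPM and from 23.7 to 217 CPM, so the sides overlap. The log2 fold change was 1.59 ± 0.51 (SE), with adjusted p = 0.557 by edgeR. ARG4 met the count filter only through the strains, where it is high, so these values are a description. ARG7, a mitochondrial enzyme of ornithine synthesis, stood at 81.5 ± 48.6 CPM and 134 ± 67.3 CPM (0.65 ± 0.40).

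**Figure D2:**
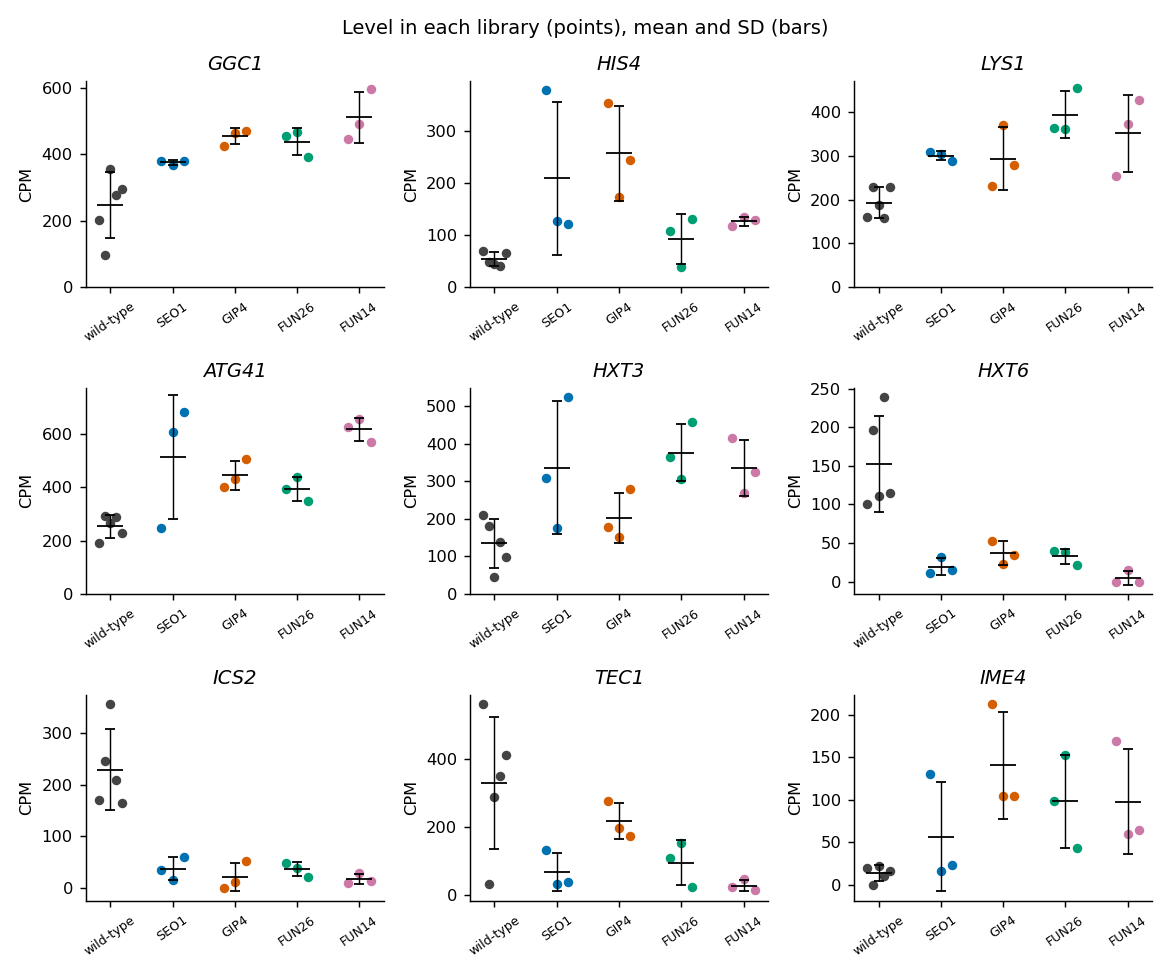
CPM (vertical, linear) of 9 genes in each library, with the 5 wild-type libraries and the 3 libraries of each heterozygote as points and the mean and SD as bars. GGC1 and LYS1 lie wholly above wild-type in all strains, HXT6 and ICS2 wholly below, and the remaining genes overlap.

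Across amino acid synthesis as a whole, 71 of 92 listed genes were tested. The list's median log2 fold change was 0.23, 52 members were positive, and 13 were higher and 0 lower at an unadjusted p under 0.05, against 3.15% and 3.33% of all tested ORFs. The median stayed between 0.19 and 0.33 in the 32 alternatives. In single libraries, the list's median difference from the wild-type mean ran from −0.11 to 0.18 in wild-type and from 0.09 to 0.44 in the strains, and the lowest strain library (FUN14 replicate 1) lay within the wild-type range. Over all tested ORFs the same measure ran from −0.01 to 0.12 in wild-type and from −0.04 to 0.11 in the strains. By strain, the list's median was 0.31 for SEO1, 0.38 for GIP4 and 0.20 for both FUN26 and FUN14, values that share the same wild-type libraries. The list was chosen with earlier results of these data known and is no independent evidence of its direction. Some members, among them ARG4, HIS4 and HIS5, met the count filter only through the strains, so the list's median and counts are a description.

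**Figure D3:**
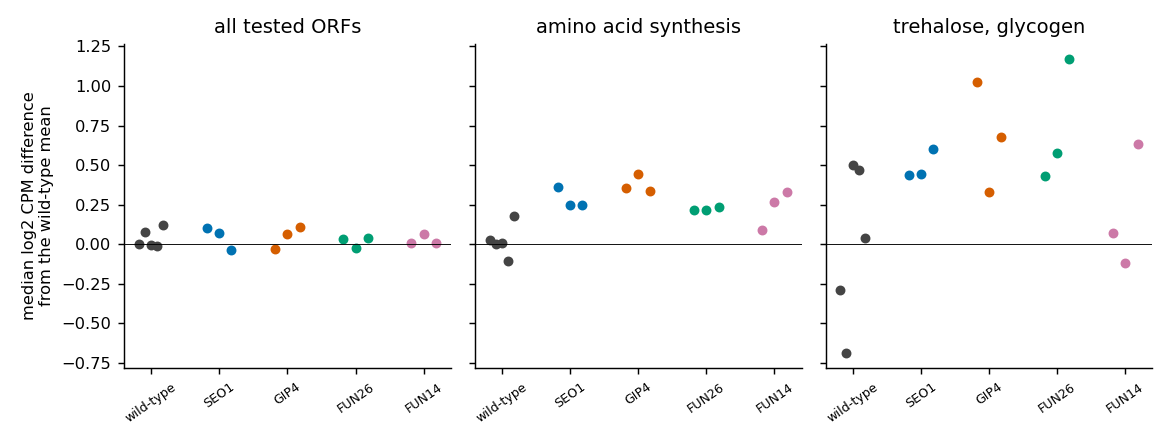
Median log2 CPM difference from the wild-type mean (vertical) over all tested ORFs, the amino acid synthesis list and the trehalose and glycogen list, with 1 point per library by group. In the amino acid panel 11 of the 12 strain points lie above the highest wild-type point at 0.18, while in the trehalose and glycogen panel the sides overlap.

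The pathways had different medians, and no test was made between them. Arginine had a median of 0.65 with 5 of 5 tested members positive, histidine 0.52 with 5 of 5, branched-chain 0.41 with 8 of 8, aromatic 0.33 with 8 of 10, and lysine 0.30 with 5 of 6. Serine, glycine and 1-carbon genes had 0.25 with 6 of 10, glutamate, asparagine and proline genes 0.19 with 5 of 9, and threonine and homoserine genes 0.17 with 4 of 5. The sulfur amino acid genes had a median of 0.00 with 6 of 13 positive and none at an unadjusted p under 0.05, near the median of all ORFs. Single libraries moved several of these medians. Arginine had 1.08 without wild-type replicate 5, and histidine 0.34 without wild-type replicate 3, in which HIS7 stood at 16.3 CPM. Threonine and homoserine genes had 0.0040 without wild-type replicate 3, 0.086 without wild-type replicate 4, 0.085 without SEO1 replicate 1, 0.30 without wild-type replicate 6 and 0.26 without FUN26 replicate 2. Glutamate, asparagine and proline genes had 0.076, 0.10 and 0.35 without wild-type replicates 2, 3 and 5 and 0.089 without FUN26 replicate 3. Serine, glycine and 1-carbon genes had 0.14 without wild-type replicate 3 or SEO1 replicate 3 and 0.17 without wild-type replicate 5. The branched-chain, aromatic and lysine medians moved by less than 1.5 times.

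HIS4 (chromosome 3, 68333 to 65934 in the deposited table, C strand), a multifunctional histidine enzyme, stood at 39.8 to 70.2 CPM in wild-type. The strain libraries ran from 38.2 through a median of 130 to 379 CPM, and the lowest of them, FUN26 replicate 2, lay below all wild-type libraries. The log2 fold change was 1.52 ± 0.38 with an edgeR adjusted p of 0.136, and the strains differed among themselves at an unadjusted F-test p of 0.0245, with 1.94, 2.25, 0.69 and 1.22 in the order SEO1, GIP4, FUN26 and FUN14. HIS5, an aminotransferase of the pathway, stood at 95.3 ± 29.2 CPM and 176 ± 46.4 CPM (0.87 ± 0.27, edgeR adjusted p = 0.515). HIS4 and HIS5 met the count filter only through the strains, where they are high, so their values are a description.

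LYS1 (chromosome 9, 420733 to 419612, C strand), saccharopine dehydrogenase of the last step of lysine synthesis, ran from 159 to 229.8 CPM over wild-type libraries and from 230.8 to 457 CPM over strain libraries. The sides did not overlap, although the nearest libraries were at 229.8 and 230.8 CPM. Non-overlap with strains higher was seen in 5 of 2856 ORFs (0.175%). The log2 fold change of LYS1 was 0.79 ± 0.21 (edgeR adjusted p = 0.253). LYS9, the step before it, stood at 144 ± 41.2 CPM and 253 ± 75.7 CPM (0.78 ± 0.27).

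Values for the other members at an unadjusted p under 0.05 were close to these. ARO4, which starts aromatic synthesis, stood at 127 ± 50.1 CPM and 253 ± 83.4 CPM (0.93 ± 0.29). TRP3 and TRP4 of tryptophan synthesis had 1.27 ± 0.43 and 1.15 ± 0.55. TRP3 had at most 1 count in wild-type replicate 5, and gave 1.00 to 1.60 when 1 library was left out. BAT1, the mitochondrial branched-chain aminotransferase, and ILV2, the acetolactate synthase, had 0.80 ± 0.27 and 0.58 ± 0.22. GLY1, threonine aldolase, had 0.77 ± 0.27, and ASN1, asparagine synthetase, 0.64 ± 0.27. None of them passed the adjusted threshold.

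The mRNA of GCN4 itself overlapped between the sides. It stood at 701 ± 355 CPM in wild-type (408 to 1274 CPM) and 838 ± 318 CPM in the strains (328 to 1370 CPM), with a log2 fold change of 0.22 ± 0.28 and unadjusted p = 0.442 by edgeR. GCN4 is known to be controlled mainly in translation, so its mRNA says little of the protein. PCL5, a cyclin that promotes Gcn4 breakdown, stood at 584 ± 181 CPM and 731 ± 193 CPM (0.30 ± 0.20). None of the 10 tested members of the list of GCN4 and its control passed.

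Sequences near the starts of these genes were searched for the core of the Gcn4 motif, TGACTC, on both strands, in windows from 250 bases before to 50 after each start in the RefSeq assembly R64. Of 2602 tested ORFs with a window, 8.46% held a match, as did 8.08% of all 5914 ORFs with a window and 54.9% (39 of 71) of the tested amino acid list. Of the 13 members higher at an unadjusted p under 0.05, 8 held a match, and of the 58 others 31 did. The matches of these 8 genes are shown as 30 bases read 5′ to 3′ on the strand of the gene, with the match in capitals (GAGTCA is the same motif on the other strand).
HIS4 (chrIII:68554-68583, minus strand): ctaatagTGACTCcggtaaattagttaatt
HIS4 (chrIII:68515-68544, minus strand): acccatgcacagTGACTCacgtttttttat
LYS1 (chrIX:420957-420986, minus strand): tGAGTCAaaaaagactcttatacatttata
LYS1 (chrIX:420853-420882, minus strand): ttcagcgacaaaGAGTCAtaaagtcatcct
HIS5 (chrIX:142714-142743, plus strand): tcttggatctgtTGACTCacttcaattgat
ARG4 (chrVIII:141564-141593, minus strand): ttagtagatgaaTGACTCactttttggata
TRP3 (chrXI:38259-38288, minus strand): tcaatggctcgtTGACTCattctaatctat
BAT1 (chrVIII:517349-517378, plus strand): attgccttcttaTGACTCaaaattctattg
ASN1 (chrXVI:822381-822410, plus strand): tcatgtaacattTGACTCattctgtaaact
TRP4 (chrIV:1184570-1184599, plus strand): acctacgcagatTGACTCtctaaaaaatga

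Outside the amino acid and mating lists, 181 tested ORFs held a match and had a median log2 fold change of 0.07, with 59.1% positive. The 2342 without a match had a median of −0.05, with 43.9% positive. These medians are a description, without a test. For 5 other motifs searched in the same way, the medians of ORFs with a match were −0.02 for AGGGG (Msn2 and Msn4, general stress), 0.02 for CACGTG (Pho4 and Cbf1), −0.05 for TGAAACA (Ste12), −0.06 for CATTCC (Tec1) and −0.03 for TTCNNGAA (Hsf1). The share of tested ORFs with a match was 23.4%, 3.73%, 6.65%, 9.53% and 13.5% in that order. Overlaps between matches of different motifs were not counted.

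**Figure D4:**
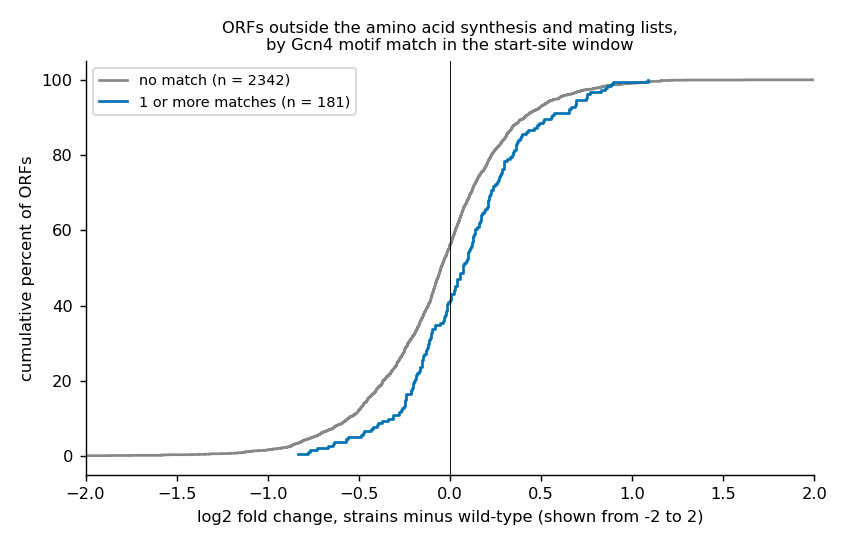
Cumulative percent of ORFs (vertical) by log2 fold change of strains minus wild-type (horizontal, shown from −2 to 2), for ORFs outside the amino acid synthesis and mating lists. The line for the 181 ORFs with a Gcn4 motif match lies to the right of that for the 2342 without over most of its course, with medians of 0.07 and −0.05.

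Among hexose transporters HXT6 alone passed the test. HXT6 (chromosome 4, 1161315 to 1159603, C strand), a high-affinity transporter, stood at 100, 196, 111, 239 and 115 CPM in wild-type. The strain libraries ran from 0 through a median of 22.5 to 53.3 CPM, and none reached wild-type. HXT6 fell by 2.93 ± 0.40 on the log2 scale (edgeR adjusted p = 0.000191), from 63 summed counts over wild-type and 25 over the strains. HXT6 met the count filter only through wild-type, where it is high, so its call and its non-overlap are a description. It was also called with no filter. It no longer met the count filter without wild-type replicates 3, 4 or 5. Sides that do not overlap with the strains lower were seen in 8 of 2856 ORFs (0.28%).

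HXT7, whose coding sequence is nearly identical to that of HXT6, ran from 32.7 to 318 CPM over wild-type and from 14.9 to 331 CPM over the strains, which overlap, and had at most 1 count in SEO1 replicate 2 and FUN14 replicate 2. Its log2 fold change was −0.82 ± 0.43 (edgeR adjusted p = 0.719). Reads of this pair may be divided between them in a way the deposited table does not show, so both values are uncertain. HXT3, a low-affinity transporter encoded nearby on chromosome 4, stood at 134 ± 65.7 CPM in wild-type and 312 ± 115 CPM in the strains, with 1.16 ± 0.32 and an edgeR adjusted p of 0.28. The lowest strain library, at 151 CPM, lay below the highest wild-type library, at 211 CPM. Of the 8 tested members of 16 listed transporters, sensors and hexokinases, 1 fell and 0 rose at the adjusted threshold, and the list median was −0.11, with −0.13 to 0.038 when 1 library was left out.

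ICS2 (chromosome 2, 554304 to 553537, C strand), which has no known function, fell by 3.07 ± 0.39 (edgeR adjusted p = 9.49e-05). It stood at 170, 245, 355, 209 and 164 CPM in wild-type, and at 0 to 60.8 CPM in the strains with a median of 25.8 CPM. The sides did not overlap, with 95 summed counts over wild-type and 30 over the strains. ICS2, like HXT6, met the count filter only through wild-type, and it too was called with no filter. Of the 12 tested of 16 listed genes of daughter cell separation, to which it was assigned, ICS2 was the 1 that fell, and the list median was −0.08, with −0.12 to −0.027 when 1 library was left out. SUN4, a cell wall protein of septation, stood at 118 ± 36.7 CPM and 64.8 ± 35.1 CPM (−0.84 ± 0.35).

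TEC1 (chromosome 2, 409163 to 410623, W strand), a transcription factor of filamentous growth that acts with the mating factor Ste12, stood at 561, 289, 348 and 410 CPM in the wild-type libraries other than replicate 3, and at 32.7 CPM there. The strain libraries ran from 12.9 through a median of 76.6 to 275 CPM, with at most 1 count in FUN26 replicate 3 and FUN14 replicate 3, so the sides overlap. TEC1 fell by 2.05 ± 0.42 (edgeR adjusted p = 0.0239), with −2.30 for SEO1, −0.60 for GIP4, −1.68 for FUN26 and −3.64 for FUN14, and an unadjusted F-test p of 0.00886 among them. The call ended in 9 of 31 alternatives in which TEC1 was tested, at adjusted p from 0.0506 to 0.45, 6 of which each left out a single library (replicate 4, 5 or 6 of wild-type, GIP4 replicate 2, FUN14 replicate 1, FUN14 replicate 3) and gave −2.10 to −1.98. Of 7 tested of 17 listed filamentous growth genes it was the 1 that fell, and the list median was 0.01, with −0.17 to 0.11 when 1 library was left out.

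IME4, an mRNA methyltransferase needed for entry into meiosis in a/alpha cells, stood at 0 to 22.2 CPM in wild-type and at 15.99 through a median of 101 to 213 CPM in the strains. Summed counts were 6 over wild-type and 107 over the strains, a ratio of 7.17 (95% counting interval 3.19 to 19.98). The log2 fold change was 2.62 ± 0.61 with an edgeR adjusted p of 0.0911, and IME4, which met the count filter only through the strains, passed without that filter, at 0.0474. Haploid cells are known to make an antisense RNA at IME4, and the use of strand in the counting is not given in the sources used here, so sense and antisense reads cannot be told apart. Of the other 10 listed meiotic entry genes, UME6, a regulator of early meiotic genes, met the count filter, at 157 ± 97.0 CPM and 178 ± 81.5 CPM. Among genes below the filter with counts on both sides, only RIM101 had a count ratio of strains to wild-type over 1. Count ratios of strains to wild-type were 0.155 (95% counting interval 0.0432 to 0.462) for SPO13, 0.115 (0.0116 to 0.603) for HOP1, 0.201 (0.0325 to 0.941) for MEI4 and 0.541 (0.317 to 0.936) for RIM4, on 2 to 35 strain counts. For SPO13, HOP1 and MEI4 the wild-type SD (46.4, 20.5 and 21.6 CPM) exceeded the wild-type mean. Their wild-type libraries ran from 0 to 109.45, 49.75 and 49.75 CPM. Libraries of the sides overlapped for SPO13, HOP1, MEI4 and RIM4. The intervals leave out the spread between libraries, so they do not establish a difference between the sides. IME1, NDT80, SPO11 and RIM101 had intervals that include 1, and IME2 had 0 and 1 counts.

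Storage carbohydrate, chaperone and nucleotide genes had no member past the adjusted threshold. In the trehalose and glycogen list 10 of 12 tested members were positive, with a median of 0.35. That median was 0.19 without wild-type replicate 3 and 0.62 without wild-type replicate 5. TSL1, a subunit of the trehalose synthase complex, stood at 61.3 ± 42.1 CPM and 129 ± 40.5 CPM (0.98 ± 0.38, edgeR adjusted p = 0.624), TPS1, the synthase, at 267 ± 93.0 CPM and 396 ± 108 CPM, and PGM2, phosphoglucomutase, at 157 ± 86.2 CPM and 288 ± 156 CPM. TSL1 met the count filter only through the strains, where it is high. By library the list's median difference ran from −0.69 to 0.50 in wild-type and from −0.12 to 1.17 in the strains, which overlap.

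Among cytosolic chaperones, 15 of 20 tested members were positive with a median of 0.11, while 44.2% of all tested ORFs were positive. At an unadjusted edgeR p under 0.05, 5 members were higher, against 3.15% of all tested ORFs. The median was 0.31 without wild-type replicate 3, 0.19 without wild-type replicate 6, 0.072 without wild-type replicate 5 and 0.063 without FUN26 replicate 3. SSA4, an inducible Hsp70, stood at 864 ± 344 CPM and 1352 ± 427 CPM (0.60 ± 0.22), and HSP104, a disaggregase, at 432 ± 190 CPM and 664 ± 165 CPM (0.61 ± 0.23). FES1, an exchange factor of Hsp70, had 0.82 ± 0.30, with an unadjusted F-test p of 0.0156 among the strains. DDR2 of the general stress list went the other way, at 222 ± 164 CPM and 88.3 ± 85.5 CPM (−1.58 ± 0.56), and had at most 1 count in wild-type replicate 3, SEO1 replicates 2 and 3 and FUN26 replicate 3.

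In the purine list 10 of 13 members were positive (median 0.27), in the pyrimidine list 5 of 8 (0.26) and in the phosphate list 8 of 11 (0.22), with 0 called in each. The phosphate median was 0.13 without SEO1 replicate 1 and 0.12 without FUN26 replicate 3. BAP2, a branched-chain amino acid permease, stood at 525 ± 92.9 CPM and 670 ± 56.8 CPM (0.36 ± 0.15). OLE1, the fatty acid desaturase, had 0.86 ± 0.28 and the spermine exporter gene TPO2 0.95 ± 0.31, both at edgeR adjusted p = 0.61. CYC7, the second isoform of cytochrome c, had 0.98 ± 0.33.

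On the lower side, the mitochondrial ribosome list had 9 of 36 members positive and a median of −0.17, with −0.45 in the FUN14 heterozygote and 0.07 in the GIP4 heterozygote. The cyclin and Cdc28 list had 0 of 5 positive and a median of −0.27. CLN2, a G1 cyclin, stood at 220 ± 141 CPM and 107 ± 79.1 CPM (−1.21 ± 0.48, edgeR adjusted p = 0.666), and it had at most 1 count in wild-type replicate 3 and SEO1 replicate 2. The iron and copper list had 1 of 8 positive and a median of −0.25, from −0.95 in the FUN14 heterozygote to 0.39 in the GIP4 heterozygote. No member of these lists passed. Single libraries moved all 3 medians: cyclins had −0.16 without wild-type replicate 3 and −0.56 without GIP4 replicate 1. Iron and copper genes had −0.44 without wild-type replicate 3 and −0.16 without SEO1 replicate 3. The mitochondrial ribosome had −0.097 without wild-type replicate 5.

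The cytosolic ribosome lists lay near the median of all ORFs, at 0.04 over 56 small-subunit genes and 0.02 over 74 large-subunit genes, and ribosome assembly at 0.13 over 36 genes. Their directions turned in 3, 5 and 2 of the 32 alternatives, and leaving out 1 library gave 0.0035 to 0.12, −0.026 to 0.12 and 0.012 to 0.32.

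**Figure D5:**
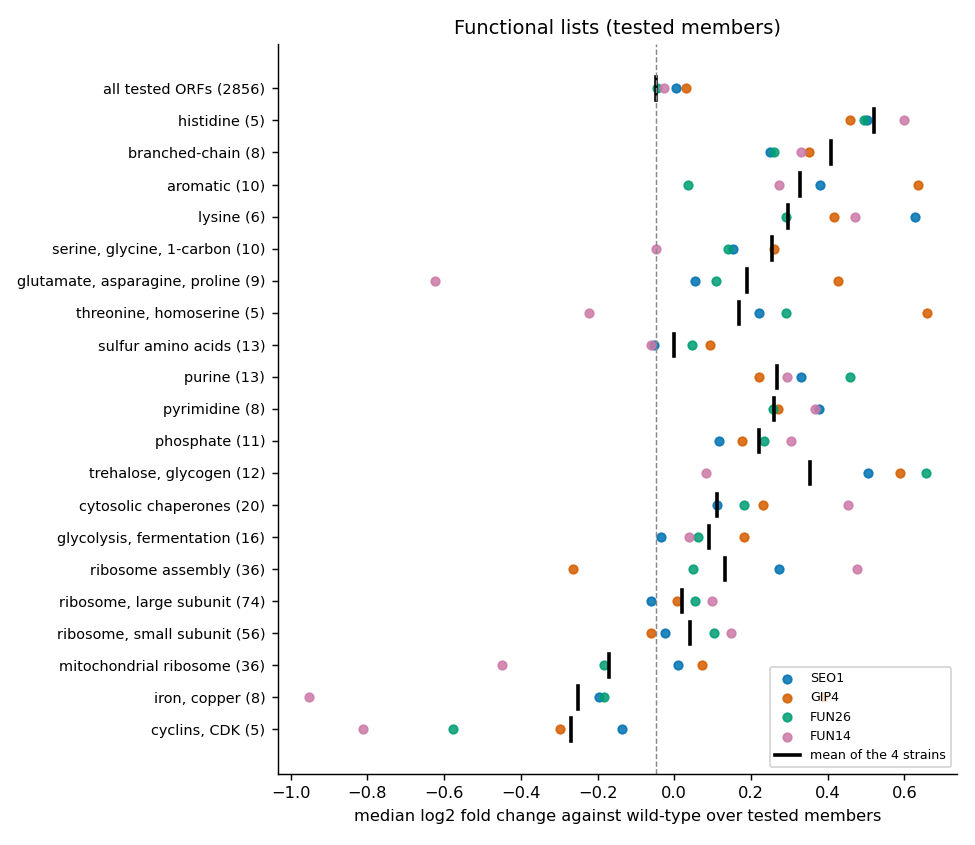
Median log2 fold change against wild-type (horizontal) over the tested members of each list, with the number of members in brackets, for each heterozygote (points) and the mean of the 4 strains (bars). Histidine, branched-chain, aromatic and lysine synthesis lie to the right of the dashed median of all tested ORFs at −0.05 in all 4 strains. So do purine, pyrimidine, phosphate, trehalose and glycogen, cytosolic chaperone and glycolysis genes, among others, while iron and copper genes lie on both sides. The dashed line is not the median of each strain. In the SEO1 heterozygote glycolysis genes (−0.035) lie below that strain's own median of all tested ORFs (0.0052).

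Other ORFs had non-overlapping sides or small p-values. ATG41, a factor of autophagy, ran from 191 to 294 CPM over wild-type and from 249 to 684 CPM over the strains, and only SEO1 replicate 1 lay within the wild-type range. Its log2 fold change was 0.94 ± 0.22 (edgeR adjusted p = 0.111), and DESeq2 called it at 0.0351. GGC1, the mitochondrial GTP/GDP carrier, ran from 98.0 to 355 CPM over wild-type and from 368 to 595 CPM over the strains, with 0.83 ± 0.23. YPQ1, a vacuolar transporter of basic amino acids, stood at 44.4 to 65.7 CPM and 71.0 to 202 CPM (1.08 ± 0.30), and YPK2, a protein kinase, at 130 to 263 CPM and 275 to 512 CPM (0.61 ± 0.21). For GGC1, YPQ1 and YPK2 the sides did not overlap, and none passed the adjusted threshold. YPQ1 met the count filter only through the strains, where it is high, so its non-overlap is a description.

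On the lower side BST1, a GPI inositol deacylase, stood at 194 ± 80.8 CPM in wild-type and 76.1 ± 33.6 CPM in the strains (−1.34 ± 0.33, edgeR adjusted p = 0.111). HLJ1, an ER-associated co-chaperone, had −0.69 ± 0.22, and SGF29, a subunit of the SAGA complex, −0.63 ± 0.22. Both had sides that overlap. Without the count filter 22 ORFs passed, 2 higher and 20 lower, of which 9 lay outside the mating lists. Among those below the filter, YJR023C, MAY24 and NUT2 rested largely on wild-type replicate 5, at 318, 169 and 378 CPM against at most 49.2, 49.0 and 32.8 CPM in the other wild-type libraries.

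The 4 strains were compared among themselves in the same fit. In the edgeR F test 0 of 2856 ORFs passed the adjusted threshold, and 287 (10%) had an unadjusted p under 0.05. The smallest p was that of IGD1, at 0.000372 (adjusted 0.463). DESeq2 was not run for this comparison.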

How the data were processed

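The authors deposited estimated counts per ORF in 18 libraries. The table's name gives a window of 200 bases at the ORF end. Whole numbers made up 93.0% and multiples of 0.5 another 6.98%, and none exceeded 201, so strong genes are compressed. Bowtie 0.12.5 was used per the submitters' processing notes. Not given in the sources used here: build, annotation, strand use and multiple matches. Symbols came from RefSeq R64, which paired 5918 of 6606 ORFs. Of these 896 had the same span, so gene coordinates are those of the deposited table and R64 gave only promoter sequence.

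Estimated counts were rounded to whole numbers. edgeR 4.0.16 ran under R 4.3.3 (TMM factors, filterByExpr with a minimum count of 10, a mean per group, contrast of the mean of 4 strain means minus wild-type), with DESeq2 1.42.0 as an alternative. Library totals limit precision, and counting intervals are 95% exact intervals that cover counting error only. Log2 CPM used a prior count of 2. The fit was tested on simulated data. The members and lists were chosen with earlier results of these data known. Named genes were those past the threshold, the 12 smallest p in each direction outside the mating lists, up to 4 per list, auxotrophic markers and replaced genes, up to 10 non-overlapping ORFs in each direction, and ORFs called only by DESeq2 or without the filter: 150 tested ORFs in all. Those printed were selected from them after their values were seen. Alternatives changed the tool, scaling, filter, ceiling correction, grouping, depth term, replicate block and libraries. No column of values was left unused. The ORF called higher is not reported here.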

Additional observations from a re-analysis of the deposited data

Results flagged for a closer look

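In the wild-type group of 5 libraries, 17 of 183 values examined had 1 library far from the others, where chance flags about 1 in 20 groups. Wild-type replicate 3 was the distant library for 9 genes: it was high for FAR1 (294 CPM, others 129 to 156), HIS5 (147 CPM, others 77.8 to 89.6), SGF29 (572 CPM, others 295 to 368), PUP1 (310 CPM, others 144 to 180), TPS3 (131 CPM, others 9.95 to 44.4), CRH1 (147 CPM, others 66.7 to 82.1), BAP3 (229 CPM, others 49.8 to 100) and UME6 (327 CPM, others 88.9 to 139), and low for HIS7 (16.3 CPM, others 582 to 733). Wild-type replicate 6 was high for URA7 (969 CPM), PIR1 (1642 CPM) and PCL5 (903 CPM) and low for RIB5 (32.8 CPM). Wild-type replicate 4 was low for YPQ1 (44.4 CPM) and high for MRPL25 (77.8 CPM). The averaged replicates 1 and 2 were low for ADE57 (100.3 CPM), and replicate 5 was low for BUD3 (79.6 CPM).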

How the results depend on the processing

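Against 11 ORFs called, 22 passed without the count filter, 18 without the filter and wild-type replicate 5, 1 with a mean count of at least 20, 12 with DESeq2, 15 with wild-type replicates 1 and 2 apart, and 8 to 16 when 1 replicate was left out. 3 alternatives were chosen after seeing the data: the one without the filter and replicate 5, 1 without the 4 libraries with drop-outs (12 called) and 1 without wild-type replicates 3 and 5 (8 called, where MFA1, HXT6 and STE4 fell below the filter). Correlations of deviations had a median of 0.249 (−0.143 to 0.635) in 26 same-number pairs of libraries and −0.15 (−0.611 to 0.494) in 52 others. Of the 26, 18 were over 0.1 and 8 of 14 libraries correlated best with their own number, a hint from the data, but not every pair did, so the numbers were not taken to pair the samples. With the replicate block over numbers 1 to 3, 10 ORFs were called and the amino acid list had a median of 0.33, and without the block on the same libraries 11 were called. Of 4683 values of 150 named genes, 37 changed sign, none called and the cause not tested. With the block these were DDR2 0.019, TIR1 0.32, MET28 0.72, THR1 0.31, SAM3 0.42, GCN4 −0.00924, BAP3 −0.23, UME6 −0.17 and HSP10 −0.35. On the same libraries without the block they were TIR1 0.41, MET28 0.68, THR1 0.17, SAM3 0.38, GCN4 −0.045, BAP3 −0.23, UME6 −0.32 and HSP10 −0.47. Without wild-type replicates 3 and 5 they were MRPL33 0.15, RGT1 0.036, HIS3 −0.074, HIS1 −0.010, MDJ1 0.045, HOM2 −0.14 and MET17 0.073. HIS3 gave −0.063 without the 4 libraries with drop-outs, and HSP10 −0.043 without the filter and replicate 5. Leaving out 1 replicate gave both signs for SPL2 (−0.55 to 0.0032), HIS3 (−0.015 to 0.33), MDJ1 (−0.30 to 0.16), TAT1 (−0.093 to 0.38), UME6 (−0.037 to 0.54), HSP10 (−0.034 to 0.48) and MET17 (−0.34 to 0.031).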
